A study of Drosophila melanogaster with 48 samples.

Results

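RNA that lacks a poly(A) tail, or that is lost when RNA is selected by its tail, was measured in control Drosophila melanogaster S3 cells by setting ribosomal RNA-depleted RNA (RiboMinus) beside poly(A)-selected RNA of the same kind of cells. S3 is a cell line derived from late embryos. The cells had received 2 ug of dsRNA against GFP, a sequence foreign to the fly, and RNA was taken 5 days after transfection. In the rest of the series, S3 and S2 cells received dsRNA against the exosome subunits Csl4, Rrp40 or Rrp6 instead, or proteins were mapped on chromatin. Members were chosen by their labels alone, as every RNA sample of GFP dsRNA in S3 cells, which gave 7 of the 48 samples. They comprise 4 poly(A) samples and 3 RiboMinus samples, and the technical runs of replicate 2 had been joined by the authors, so that 3 poly(A) libraries and 2 RiboMinus libraries remained. Poly(A) RNA was taken with Poly(A)Purist kits and RiboMinus RNA with the RiboMinus Eukaryote kit, both from total RNA. All 15065 gene IDs of the tables were followed. Of these, 12031 had a read in at least 1 of the 5 libraries and 7846 had enough reads for the test.

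Most messenger RNAs end in a poly(A) tail that is added after the transcript is cut at its 3′ end. Spliceosomal RNAs, small nucleolar RNAs, transfer RNAs, 7SK and the RNAs of RNase P and RNase MRP are finished by other routes, by trimming or by termination of RNA polymerase III, and end without a long tail. Replication-dependent histone messengers end in a stem-loop. Small nucleolar RNAs of flies are mostly cut out of the introns of host genes, whose spliced transcripts are polyadenylated. Oligo(dT) selection therefore samples one set of transcripts, and depletion of ribosomal RNA a wider one.

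Levels are given as CPM, read counts scaled to the assigned reads of each library and then for composition (TMM), and are not divided by gene length, so levels are compared between libraries and not between genes. Assigned reads numbered 5568743, 69426568 and 984832 in poly(A) replicates 1, 2 and 3 and 6217631 and 138219 in the RiboMinus libraries. The RiboMinus values carry no replicate number, so these libraries are called deeper and shallower. Poly(A) replicate 3 and the shallower RiboMinus library stood apart: the Pearson correlation of log-scaled reads over 7846 genes was 0.980 between poly(A) replicates 1 and 2, 0.867 and 0.866 between each of them and replicate 3, and 0.731 between the RiboMinus libraries. The labels call the replicates biological and say nothing of separate cultures, so p-values measure the spread between these libraries, which may be technical. Of 8 genes of the hemocyte line, 7 were found. Pxn, a secreted peroxidase, stood at 1733 to 2922 CPM before TMM scaling in poly(A) RNA of these cells and srp, a GATA factor, at 344 to 659, while NimC1, a phagocytic receptor, was at or below 0.274. On the same scale ush stood at 63 to 171, crq at 84.3 to 101, Hml at 28 to 60.4 and eater at 12.2 to 100.

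Small structured RNAs were 44 of the 62 genes called higher in RiboMinus RNA in the fit of all 5 libraries. At an edgeR quasi-likelihood adjusted p of at most 0.05, 62 of 7846 genes (0.79%) were higher and 0 were lower (0%), with 972 genes at an unadjusted p under 0.05. DESeq2 called 201 (2.29%) higher and 23 (0.262%) lower of the 8763 genes it tested. Of the 62, 26 were transfer RNA genes, 8 spliceosomal RNAs, 8 small nucleolar RNAs, 1 was 7SK and 1 the RNA of RNase MRP, and 18 belonged to no noncoding list. The 2 RiboMinus libraries lay above all 3 poly(A) libraries in each of the 62, which was so in 1150 of all 7846 genes (14.7%). The 62 were chosen by a test on these same libraries, so this separation follows largely from that choice. The number of calls depended on the libraries: it was 41 without poly(A) replicate 1, 32 without replicate 2, 108 without replicate 3, of which 2 were lower, and 13 without the deeper RiboMinus library. When both libraries that stood apart were left out, an alternative added after the data had been seen, 920 of 8163 genes (11.3%) were higher and 471 (5.77%) lower. A fit with a replicate block for depth, deeper or shallower, called 779 (9.93%) higher and 539 (6.87%) lower. Small structured RNAs were a minority of the higher calls in the larger sets, 64 of 201 in DESeq2, 53 of 779 with the block and 101 of 920 without both libraries that stood apart. The last of these sets 1 RiboMinus library against poly(A) replicates 1 and 2 and assumes that the single library varies as those do.

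**Figure D1:**
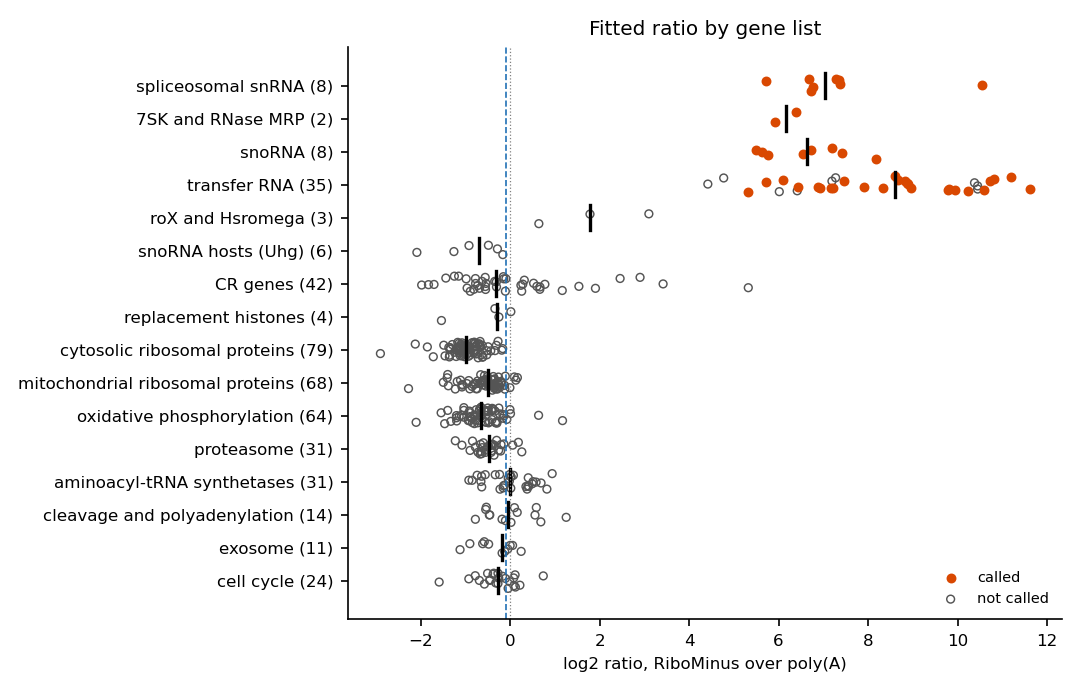
Fitted log2 ratio of RiboMinus over poly(A) RNA for each tested gene of 16 groups (y axis, number tested in brackets), in 3 poly(A) and 2 RiboMinus libraries. Filled points passed an adjusted p of 0.05, open points did not, black bars are medians and the dashed line is the median of all 7846 genes, -0.10; the spliceosomal, small nucleolar and transfer RNAs lie above 4, and the medians of ribosomal protein, oxidative phosphorylation and proteasome genes lie below 0.

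As a share of assigned reads, the same RNAs were scarce in every poly(A) library. Transfer RNA genes took 0.00244%, 0.00488% and 0.00345% of reads in poly(A) replicates 1, 2 and 3, and 0.909% and 0.383% in the deeper and shallower RiboMinus libraries. Small nucleolar RNAs took 0.0276%, 0.0423% and 0.0109% against 2.17% and 1.47%. All small structured RNA genes together took 0.0547%, 0.0773% and 0.0329% against 5.28% (95% Wilson interval 5.26 to 5.30) and 3.88% (3.78 to 3.98). The groups did not overlap in any of these classes, and the exact two-sided permutation p of each was 0.1, the smallest that 2 against 3 libraries allow. Intervals cover counting error only.

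**Figure D2:**
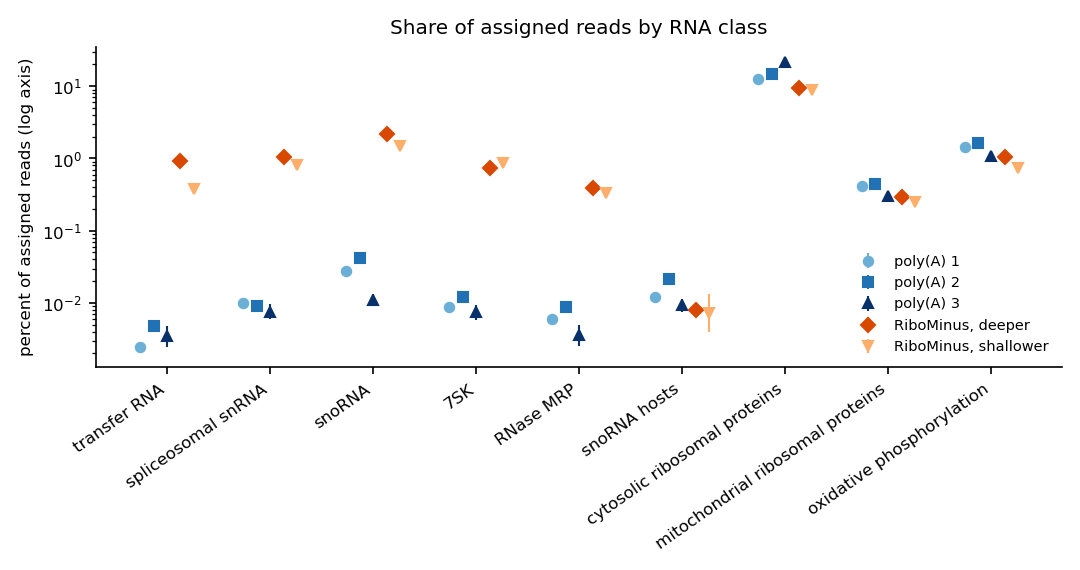
Share of assigned reads taken by 9 RNA classes in each of the 5 libraries, on a log axis, with 95% Wilson intervals (most are smaller than the symbols). The 5 classes of small structured RNA lie under 0.1% in the 3 poly(A) libraries and at 0.336% or more in the 2 RiboMinus libraries, while cytosolic ribosomal protein genes run the other way, from 12.7% or more to 9.55% or less.

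The spliceosomal RNAs were higher in RiboMinus RNA without exception among the 8 that could be tested, with log2 ratios of 5.72 to 10.55 (median 7.03). They form the core of the spliceosome, U1 and U2 marking the ends of the intron and U4, U5 and U6 joining later, and U11, U12, U4atac and U6atac serve a rare class of introns. U2:34ABa stood at 57.5, 24.6 and 24.1 CPM in poly(A) replicates 1, 2 and 3 and at 4414 and 3462 in the deeper and shallower RiboMinus libraries, a log2 ratio of 6.78 ± 0.61 (edgeR adjusted p 0.00384). Both RiboMinus values were far above the poly(A) range. For U4:38AB the levels were 4.35, 21 and 11.4 against 1421 and 1173, a log2 ratio of 6.69 ± 0.71 (edgeR adjusted p 0.0068). The groups again did not overlap, although poly(A) replicate 1 was the lowest by some distance. U1:82Eb and U5:34A had few poly(A) reads, 1, 33 and 0 for the first and 1, 15 and 0 for the second, with log2 ratios of 6.72 ± 0.62 and 7.37 ± 0.62 (edgeR adjusted p 0.00396 and 0.00309). U5:63BC had 0, 9 and 0 poly(A) reads and 619 and 35 RiboMinus reads, the highest ratio of the group at 10.55 ± 0.75 (edgeR adjusted p 0.0021). U1:82Eb, U5:34A and U5:63BC reached the test through their RiboMinus reads, so the count of 8 describes the group and does not test it. Without the deeper RiboMinus library U2:34ABa, U4:38AB, U1:82Eb and U5:34A were not called, while U5:63BC was.

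The 3 RNAs of the minor spliceosome that were tested are among these 8. U11, which pairs with the 5′ end of the rare introns, stood at 9.18, 10.7 and 12.7 in the poly(A) libraries and at 2038 and 1274 in the RiboMinus libraries, a log2 ratio of 7.29 ± 0.46 (edgeR adjusted p 0.00205). U12, the branch-point RNA of those introns, stood at 14.2, 23.8 and 21.6 against 1418 and 648, a log2 ratio of 5.72 ± 0.51 (edgeR adjusted p 0.00384). The poly(A) values of both genes lay within a 2-fold range, and the shallower RiboMinus library was the lower one. U6atac, made by RNA polymerase III, stood at 2.25, 3.09 and 24.1 against 1023 and 1303, and poly(A) replicate 3 was well above the other poly(A) libraries. Its log2 ratio of 7.35 ± 1.08 (edgeR adjusted p 0.0296) passed the threshold in the fit of all 5 libraries but not without poly(A) replicate 2, nor without either RiboMinus library. Of the 27 spliceosomal gene IDs, 17 had a read, and the 9 with reads that were not tested held 158 RiboMinus and 27 poly(A) reads in all. Most spliceosomal RNAs have near-identical copies in the genome and reads that align to several places are not assigned, so values of single U1, U2, U4, U5 and U6 copies are uncertain.

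7SK and RNase MRP RNA were higher in RiboMinus RNA. 7SK, made by RNA polymerase III, holds the elongation factor P-TEFb inactive. Its gene, snRNA:7SKa, stood at 78.5, 113 and 92.6 CPM in the poly(A) libraries and at 7346 and 8586 in the RiboMinus libraries, a log2 ratio of 6.39 ± 0.50 (edgeR adjusted p 0.00266), or 84.2-fold. RNaseMRP:RNA, the RNA of an enzyme that cuts precursors of ribosomal RNA, stood at 54.1, 80.0 and 44.4 against 3907 and 3347, a log2 ratio of 5.92 ± 0.48 (edgeR adjusted p 0.00284), or 60.5-fold. Within each fraction the libraries differed by less than 2-fold for both genes, and neither call was lost under any of 12 alternatives. RNase P RNA and U7, the RNA of histone 3′ end formation, had 0 reads in every library, and the signal recognition particle RNA 7SL had 1, so they were not measured here. In the deeper RiboMinus library 0 of 6217631 assigned reads allows a share of up to 4.83e-05%, which limits uniquely aligned reads only.

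**Figure D3:**
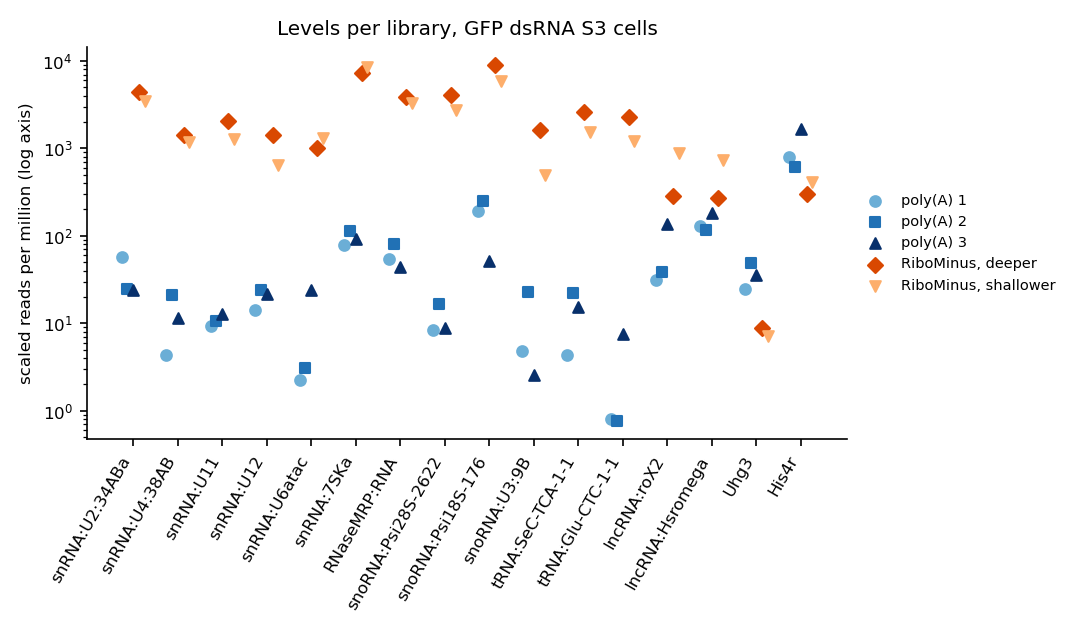
TMM-scaled CPM (log axis) of 16 noncoding and histone genes in poly(A) replicates 1, 2 and 3 and in the deeper and shallower RiboMinus libraries, 1 symbol per library. For the first 12 genes both RiboMinus libraries lie at least 10-fold above every poly(A) library; the roX2 and Hsromega libraries lie closer together, and Uhg3 and His4r run the other way.

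Small nucleolar RNAs guide the modification and cutting of ribosomal RNA, box H/ACA RNAs by pseudouridylation and box C/D RNAs by methylation. All 8 that could be tested were higher in RiboMinus RNA, with log2 ratios of 5.49 to 8.19 (median 6.65). Among them, snoRNA:Psi18S-301, with 0, 87 and 2 poly(A) reads, reached the test through its RiboMinus reads. The count of 8 therefore describes the class and does not test it. The gene with the highest mean CPM, the H/ACA RNA snoRNA:Psi18S-176, stood at 193, 250.5 and 52 against 9034 and 5938, a log2 ratio of 5.49 ± 0.75 (edgeR adjusted p 0.021). Poly(A) replicate 3 was the lowest of its group here, and the call was lost without any single library but that one. snoRNA:Psi28S-2622 stood at 8.38, 16.5 and 8.88 against 4064 and 2721, the highest ratio of the class at 8.19 ± 0.58 (edgeR adjusted p 0.0021). For snoRNA:185 the levels were 19.98, 29.2 and 17.8 against 2983 and 1849.7, a log2 ratio of 6.73 ± 0.50 (edgeR adjusted p 0.0021). These 2 genes showed no overlap and a spread of less than 2-fold among the poly(A) libraries. snoRNA:Psi28S-3342 stood at 1.93, 9.5 and 33 against 1641 and 2044, with a log2 ratio of 7.19 ± 1.08 (edgeR adjusted p 0.0324) that was not called without poly(A) replicate 2 or without either RiboMinus library. snoRNA:Or-aca4 stood at 15.3, 54.7 and 15.2 against 1681 and 1231, a log2 ratio of 5.63 ± 0.69 (edgeR adjusted p 0.0127). Poly(A) replicate 2 was the highest of its group for this gene, and the call was lost without either RiboMinus library. U3, the box C/D RNA that acts in the first cuts of the ribosomal precursor, had 30, 1724 and 2 poly(A) reads and 10237 and 69 RiboMinus reads at its copy U3:9B, a log2 ratio of 6.56 ± 0.97 (edgeR adjusted p 0.03). U3:9B was not called without poly(A) replicate 1 or without either RiboMinus library. Of the 216 small nucleolar RNA gene IDs, 11 had a read and 205 had none. Of the 72 box C/D genes with a methylation-guide name, 1 had a read.

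Uhg genes are spliced noncoding transcripts whose introns carry small nucleolar RNAs. Of the 6 Uhg genes tested, 0 were called in the fit of 5 libraries. With the replicate block for depth 1 was lower, where 6.87% of all genes were. All 6 had a log2 ratio below 0 (median -0.70), as did 4371 of all 7846 genes (median -0.10). The 6 were also below 0 with RLE scaling, with total reads as the scale and in DESeq2. Uhg3 stood at 24.6, 49.4 and 35.5 in the poly(A) libraries and at 8.89 and 7.2 in the RiboMinus libraries. The RiboMinus values lay below all poly(A) values, and the log2 ratio of -2.08 ± 0.50 did not pass (edgeR adjusted p 0.166). Uhg4 stood at 22.7, 39.8 and 20.3 against 16.8 and 7.2, with no overlap and a log2 ratio of -0.92 ± 0.50 (edgeR adjusted p 0.501). Uhg1 stood at 12.9, 28.6 and 25.4 against 7.14 and 21.6, where the shallower RiboMinus library, with 3 reads, lay inside the poly(A) range. The shallower RiboMinus library had 1 to 3 reads for each of the 5 hosts with the highest mean CPM.

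Transfer RNAs carried the highest ratios. Of 292 transfer RNA gene IDs, 189 had a read, 75 of them in RiboMinus libraries only and 6 in poly(A) libraries only. Of the 35 tested, 26 were higher, and in all 35 the RiboMinus libraries lay above the poly(A) libraries, with log2 ratios of 4.42 to 11.61 (median 8.61). Of these 35, 13 had 3 or fewer poly(A) reads in all and reached the test through their RiboMinus reads. So did others with more poly(A) reads, such as tRNA:Lys-TTT-1-1 with 0, 44 and 0. The counts of genes called and of genes above the poly(A) libraries therefore describe the class and do not test it. The 26 belonged to 15 of 17 tested isotypes. The genes that were not tested held 6560 RiboMinus and 421 poly(A) reads in all.

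The selenocysteine transfer RNA, tRNA:SeC-TCA-1-1, had the highest mean CPM of its class. It stood at 4.35, 22.3 and 15.2 CPM in the poly(A) libraries and at 2585 and 1555 in the RiboMinus libraries, a log2 ratio of 7.21 ± 0.78 (edgeR adjusted p 0.00737). The glutamate gene tRNA:Glu-CTC-1-1 stood at 0.805, 0.753 and 7.61 against 2269 and 1216, a log2 ratio of 10.24 ± 1.10 (edgeR adjusted p 0.00724). Its level in poly(A) replicate 3 rests on 6 reads. The cysteine gene tRNA:Cys-GCA-3-1 stood at 4.99, 2.35 and 3.8 against 952 and 274, a log2 ratio of 7.46 ± 0.70 (edgeR adjusted p 0.004), and was called under all 12 alternatives. The lysine gene tRNA:Lys-TTT-1-1 had 0, 44 and 0 poly(A) reads and 1561 and 12 RiboMinus reads, and the aspartate gene tRNA:Asp-GTC-2-1 had 22, 459 and 0 and 1638 and 7. Their log2 ratios were 8.67 ± 0.83 and 5.32 ± 0.80 (edgeR adjusted p 0.00432 and 0.0324). Without the deeper RiboMinus library neither was called, nor were tRNA:SeC-TCA-1-1 and tRNA:Glu-CTC-1-1. The call of tRNA:Asp-GTC-2-1 was also lost without poly(A) replicate 1 or 2. For tRNA:Gly-GCC-2-1, with 0, 3 and 0 poly(A) reads and 812 and 7 RiboMinus reads, the ratio of summed, scaled reads was 3506-fold with a 95% counting interval of 1195 to 17034. This gene, too, was not called without the deeper RiboMinus library. Many transfer RNA genes are near-identical, so reads of 1 gene may come from another copy, and 1 of the called genes, tRNA:His-GTG-2-1Psi, is annotated as a pseudogene.

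Annotated noncoding genes outside these classes gave no call. Of 42 tested genes with CR symbols, 0 were called, 4 lay above the poly(A) range, where 14.7% of all genes did, 9 lay below it, where 19.2% did, and the median log2 ratio was -0.31, against -0.10 over all genes. The one with the highest mean CPM, asRNA:CR31144, stood at 226, 238 and 8305 in the poly(A) libraries and at 474 and 4851 in the RiboMinus libraries. Its high values lay in the 2 shallower libraries, 1 of each fraction, and its log2 ratio was -0.14 ± 1.63 (edgeR adjusted p 0.985). lncRNA:CR42862 stood at 828, 831 and 1008 against 340.2 and 583, below the poly(A) range in both RiboMinus libraries, with a log2 ratio of -0.96 ± 0.41 (edgeR adjusted p 0.401).

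The roX RNAs act with the MSL proteins in dosage compensation of the male X chromosome. roX2 stood at 31.1, 38.5 and 137 against 286 and 878, and both RiboMinus libraries were above all poly(A) libraries, with a log2 ratio of 3.10 ± 0.76 (edgeR adjusted p 0.169). roX2 was not called in this fit but was in 6 of 12 alternatives, DESeq2 among them, with adjusted p from 1.68e-06 to 0.607. roX1 stood at 2.58, 11 and 21.6 against 16.8 and 14.4, with RiboMinus values inside the poly(A) range and a log2 ratio of 0.64 ± 0.85 (edgeR adjusted p 0.793). Hsromega, a nuclear RNA known for its response to heat, stood at 129.5, 116 and 181 against 271 and 727, without overlap, and its log2 ratio was 1.79 ± 0.47 (edgeR adjusted p 0.199). It was called in 4 of 12 alternatives, DESeq2 among them, with adjusted p from 0.00175 to 0.679. In both roX2 and Hsromega the shallower RiboMinus library was the highest and poly(A) replicate 3 the highest of the poly(A) libraries.

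Several other classes had too few assigned reads to be compared. Of 111 replication-dependent histone gene IDs, which lie in repeated copies, 2 had a read, with 4 reads in each fraction in all. The 36 mitochondrially encoded gene IDs had 0 reads. Of 166 microRNA gene IDs, 28 had a read, with 84 poly(A) and 44 RiboMinus reads in all, and 0 were tested. Of 107 ribosomal RNA gene IDs, 2 had a read. The 1 tested, 18SrRNA:CR41548, had 0, 3 and 13 poly(A) reads and 27 and 35 RiboMinus reads, a log2 ratio of 6.36 (edgeR adjusted p 0.419) that was called with the replicate block and without both libraries that stood apart. Replacement histones, whose messengers are polyadenylated, were well covered. His2Av stood at 247, 334 and 235 against 208 and 223, His3.3A at 240.5, 190.4 and 223 against 175 and 194 and His3.3B at 737, 665 and 1117 against 677 and 1029. Their log2 ratios lay between -0.34 and 0.02 and none was called. His4r stood at 800.4, 611 and 1684 against 299.9 and 418, below the poly(A) range in both RiboMinus libraries, with a log2 ratio of -1.53 ± 0.55 (edgeR adjusted p 0.334).

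Outside the noncoding lists, 18 genes were higher in RiboMinus RNA, 17 of them protein-coding genes with a symbol. Gene spans in the RefSeq Release 6 annotation, used only to tell which genes overlap, show an overlap with a transfer RNA, spliceosomal, small nucleolar or RNase MRP RNA gene for 13 of the 17. The last of the 18, FBgn0033068, matched no symbol and stood at 0.967, 0.475 and 1.27 CPM in the poly(A) libraries and at 137 and 43.2 in the RiboMinus libraries, a log2 ratio of 7.27 ± 0.65 (edgeR adjusted p 0.00384). Among all 7236 protein-coding genes tested, 136 (1.88%) overlapped such a gene. Of these 136, 13 were called (9.56%) and 56 lay above the poly(A) range (41.2%), with a median log2 ratio of 0.61. Of the 7100 others, 4 were called (0.0563%) and 922 lay above the poly(A) range (12.99%), with a median of -0.12. Both groups hold genes that reached the test through their RiboMinus reads, Dop2R and CG9289 of the 13 among them. The counts therefore describe the groups and do not test them. By type of RNA, 27 of 49 genes that overlap a transfer RNA gene, 6 of 7 that overlap an snRNA gene and 23 of 79 that overlap a small nucleolar RNA gene lay above the poly(A) range. The median log2 ratios of these 3 types were 1.25, 2.52 and -0.27, so that genes overlapping a small nucleolar RNA gene had a lower median than genes with no overlap. No source used here says that counting took strand into account. The overlapping protein-coding genes and the small RNA genes were counted as separate genes. Whether reads counted for a protein-coding gene came from the small RNA was not tested.

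**Figure D4:**
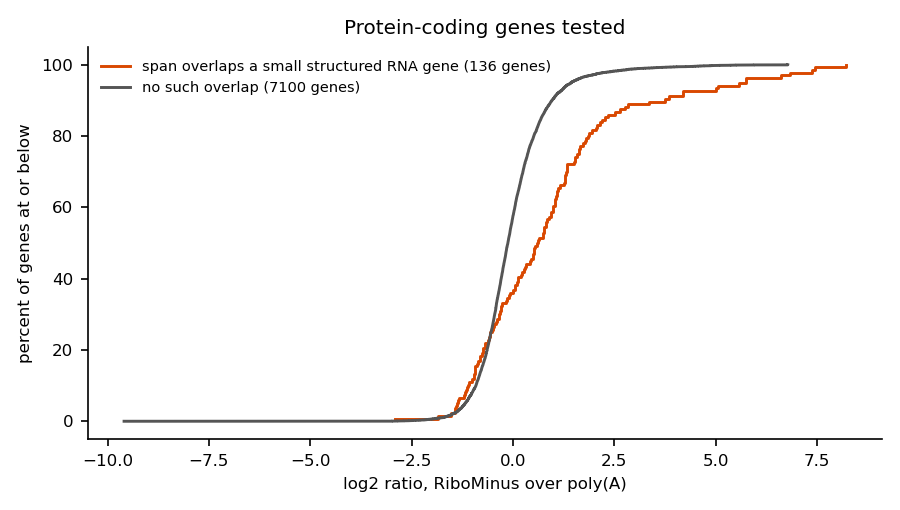
Cumulative percent of protein-coding genes (y axis) at or below each log2 ratio of RiboMinus over poly(A) RNA (x axis), for the 136 tested genes whose span overlaps a small structured RNA gene and the 7100 whose span does not. The line of the overlapping genes lies to the right from about -0.5 upward, with medians of 0.61 and -0.12.

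Levels of these genes are given by library. stet, a rhomboid-type protease gene that overlaps snoRNA:Psi28S-2622, stood at 12.2, 22.4 and 11.4 CPM in the poly(A) libraries and at 5919.6 and 3498 in the RiboMinus libraries, a log2 ratio of 8.22 ± 0.61 (edgeR adjusted p 0.0021). Both RiboMinus values were far above the poly(A) range. Fie, which overlaps U11, stood at 13.8, 15.1 and 43.1 against 3209.9 and 4282, a log2 ratio of 7.37 ± 0.70 (edgeR adjusted p 0.00414). CG10365, which overlaps RNaseMRP:RNA, stood at 101, 123 and 178 against 3888 and 10559, a log2 ratio of 5.76 ± 0.64 (edgeR adjusted p 0.00764). The shallower RiboMinus library was the higher one for both Fie and CG10365. CG10936, which overlaps snoRNA:Or-aca4, stood at 17.4, 57 and 64.7 against 1868 and 14251, a log2 ratio of 7.46 ± 1.08 (edgeR adjusted p 0.0286). Its RiboMinus libraries were far apart, the shallower one higher, and neither overlapped the poly(A) range. mrj, a DnaJ-type chaperone gene that overlaps 4 transfer RNA genes, tRNA:Glu-CTC-1-1 among them, stood at 54.6, 47.9 and 72.3 against 4590.2 and 1655, a log2 ratio of 5.76 ± 0.59 (edgeR adjusted p 0.00543).

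Among the other overlapping genes, tkv, a type I receptor for the BMP ligand Dpp, overlaps 2 aspartate transfer RNA genes. It stood at 45.4, 56.2 and 58.3 against 448 and 1526, a log2 ratio of 4.2 ± 0.56 (edgeR adjusted p 0.019). The shallower RiboMinus library was the higher one for tkv, whereas tRNA:Asp-GTC-2-1 was higher in the deeper library. Baldspot, a fatty acid elongase gene that overlaps U12, stood at 125, 159.6 and 114 against 1865 and 2008, a log2 ratio of 3.86 ± 0.38 (edgeR adjusted p 0.00489). Msp300, a giant nuclear envelope protein, Dek, a chromatin protein, cno, a junction protein, and Aladin, a nuclear pore protein, had log2 ratios of 2.83, 2.77, 2.52 and 2.15 (edgeR adjusted p 0.0191, 0.0256, 0.0317 and 0.0191). The RNAs that overlap Dek, Aladin and cno, snoRNA:Dek-a, snoRNA:CG16892-a and snRNA:U4atac, were matched to no gene ID and not analysed here. Dop2R, a dopamine receptor gene that overlaps tRNA:Pro-CGG-1-1, had 3, 5 and 1 poly(A) reads and 155 and 3 RiboMinus reads, and CG9289, which overlaps 2 aspartate transfer RNA genes, had 2, 25 and 0 and 97 and 2. Both genes reached the test through their RiboMinus reads. Their calls rest on 3 and 2 reads in the shallower RiboMinus library, and their log2 ratios were 6.83 ± 1.10 and 5.57 ± 0.75. CG10936, Dop2R, Msp300 and Dek were not called without any single library but poly(A) replicate 3. cno, Aladin and CG9289 were not called without poly(A) replicate 1, replicate 2 or the deeper RiboMinus library. tkv lost its call without poly(A) replicate 1 or 2, and CG10365 without replicate 2 or the deeper RiboMinus library. Fie and Baldspot lost theirs without the deeper RiboMinus library, and stet and mrj kept theirs under all 12 alternatives.

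In 4 called protein-coding genes the annotation shows no small structured RNA gene. HERC2, a large ubiquitin ligase, stood at 64, 52.4 and 53.3 CPM in the poly(A) libraries and at 430.2 and 295 in the RiboMinus libraries, a log2 ratio of 2.70 ± 0.32 (edgeR adjusted p 0.0112), or 6.48-fold. mei-P26, a TRIM-NHL regulator of translation in the germline, stood at 40.4, 36 and 29.2 against 151 and 151, a log2 ratio of 2.08 ± 0.30 (edgeR adjusted p 0.0256). LRP1, a lipoprotein receptor, stood at 74, 63.8 and 68.5 against 268 and 281, a log2 ratio of 1.99 ± 0.28 (edgeR adjusted p 0.0255). Pde9, a cyclic nucleotide phosphodiesterase, stood at 43, 39.9 and 41.8 against 134 and 173, a log2 ratio of 1.86 ± 0.29 (edgeR adjusted p 0.0416). In all 4 the 3 poly(A) values were close together and no library overlapped the other group. Each lost its call without poly(A) replicate 1, without replicate 2 and without the deeper RiboMinus library. mei-P26, LRP1 and Pde9 also lost it without the shallower RiboMinus library, and mei-P26 and Pde9 with total reads as the scale. Over all alternatives the log2 ratios of the 4 genes stayed between 1.73 and 2.96. HERC2 and mei-P26 overlap no other annotated gene, and LRP1 and Pde9 overlap other protein-coding genes.

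Ratios as high as those of the overlapping genes were also seen in rarely read coding genes. A log2 ratio of 3 or more was fitted for 97 protein-coding genes, 15 of which overlap a small structured RNA gene. In the other 82, 0 were called in the fit of 5 libraries, the smallest adjusted p was 0.0999, and 71 lay above the poly(A) range. Their median level was 0.600 CPM in poly(A) RNA, against 42.4 over all tested coding genes, and 55 of them stood under 1, as did 1.57% of all tested coding genes. With the replicate block for depth 75 of these 82 were called, where 9.93% of all genes were. Their median count in the shallower RiboMinus library was 3 reads. The 82 genes were chosen by their ratio in these same libraries. The 55 under 1 CPM also reached the test through their RiboMinus reads. The numbers called with the block and above the poly(A) range, and the low poly(A) level, follow in part from that choice and from the filter. They describe these genes and do not test them.

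On the other side, no gene was called lower in RiboMinus RNA in the fit of all 5 libraries, and the lowest median of any list was that of the cytosolic ribosomal proteins. Cytosolic ribosomal protein genes had log2 ratios below 0 in 79 of 79 tested (median -0.99), also under the other scalings. Over all genes this was so in 4371 of 7846 (median -0.10). Of the 79, 52 lay below the poly(A) range, where 19.2% of all genes did. None passed the test (smallest adjusted p 0.139). Their share of reads was 12.7%, 14.9% and 21.9% in poly(A) replicates 1, 2 and 3 and 9.55% and 8.91% in the RiboMinus libraries, a difference of means of -7.25 percentage points (exact two-sided permutation p 0.2) that was -4.56 without poly(A) replicate 3. The groups did not overlap, and poly(A) replicate 3 was the highest. Mitochondrial ribosomal protein genes, with 35 of 68 below the poly(A) range (median -0.50), oxidative phosphorylation genes, with 39 of 64 (median -0.65), and proteasome genes, with 9 of 31 (median -0.48), gave 0 calls each. Without both libraries that stood apart, 4 of the cytosolic ribosomal protein genes, 10 of the mitochondrial ones, 12 of the oxidative phosphorylation genes and 2 of the proteasome genes were lower, where 5.77% of all genes were. In that fit the counts of cytosolic ribosomal protein and proteasome genes are near that share. With the replicate block for depth, 15 of 79 cytosolic and 8 of 68 mitochondrial ribosomal protein genes were lower, against 6.87% of all genes. So were 18 of 64 oxidative phosphorylation genes and 3 of 31 proteasome genes.

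Single genes show the range. RpL15, a protein of the large ribosomal subunit, stood at 2891, 4767 and 9523 in the poly(A) libraries and at 2244 and 3203 in the RiboMinus libraries, which overlap, with a log2 ratio of -1.07 ± 0.63 (edgeR adjusted p 0.536). ATPsynC, a subunit of the ATP synthase ring, stood at 1043, 1343 and 994 against 604 and 238, without overlap, with a log2 ratio of -1.39 ± 0.50 (edgeR adjusted p 0.334). The lowest ratios among genes with a symbol, at least 20 CPM and no overlap were listed after the values had been seen. They were led by RpL23A, of the large subunit, at 1723, 2007 and 5089.8 against 578 and 194 and a log2 ratio of -2.90 ± 0.76 (edgeR adjusted p 0.195). CG15098 stood at 559, 943 and 1193 against 128 and 166, a log2 ratio of -2.63 ± 0.49 (edgeR adjusted p 0.084). In the shallower RiboMinus library the next values rest on 1 to 3 reads. shrb, a subunit of the membrane-remodelling ESCRT-III complex, stood at 295, 286 and 308 against 70.6 and 21.6, a log2 ratio of -2.46 ± 0.47 (edgeR adjusted p 0.0899). mRpL36, a mitochondrial ribosomal protein, came nearest to the threshold among these, at 69.3, 66.9 and 78.6 against 16.4 and 7.2 with a log2 ratio of -2.27 ± 0.38 (edgeR adjusted p 0.0556).

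Other coding groups gave no call. Aminoacyl-tRNA synthetase genes had a median log2 ratio of -0.01 over 31 tested, cleavage and polyadenylation genes -0.04 over 14, exosome genes -0.18 over 11, cell cycle genes -0.27 over 24, histone messenger processing genes -0.22 over 10, insulator protein genes -0.42 over 11 and heat shock genes 0.36 over 10. With RLE scaling the medians of the synthetase and the cleavage and polyadenylation genes were 0.06 and 0.01, so their sign depends on the scaling.

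Reads that were not assigned to a gene also differed in kind. Assigned reads were 37.2%, 34.1% and 12.8% of all counted alignments in poly(A) replicates 1, 2 and 3 and 12.3% and 7.98% in the RiboMinus libraries. Alignments to several places made up 21.4%, 32.2% and 30.6% in poly(A) RNA and 75.6% and 55.1% in RiboMinus RNA, and the groups did not overlap. Alignments outside annotated genes made up 40.6%, 32.9% and 56.4% against 11.2% and 36.3%, where the shallower RiboMinus library lay inside the poly(A) range. Which genes the alignments to several places come from was not analysed here.

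The 62 genes were looked up in libraries that the comparison had not used. In S3 cells given dsRNA against Csl4, with 2 poly(A) and 2 RiboMinus libraries, 54 of the 62 were tested, 54 had a log2 ratio above 0 (median 6.14) and 36 were called higher, where 0.608% of all 7407 genes were. For Rrp40, 58 were tested, 58 were above 0 (median 5.12) and 28 were called, against 0.41% of 7800 genes. For Rrp6, 55 were tested, 55 were above 0 (median 6.02) and 35 were called, against 0.476% of 8189 genes. Of all tested genes, 50.5%, 43.0% and 46.1% had a ratio above 0 in these 3 sets. Genes with few poly(A) reads, such as some transfer RNA genes, could reach the test in these sets only through their RiboMinus reads. For such genes a ratio above 0 was set by the filter. The counts above 0 and of calls therefore describe the 62 and do not test them. U11 had log2 ratios of 5.98, 5.61 and 5.08 in the Csl4, Rrp40 and Rrp6 sets (edgeR adjusted p 0.00897, 0.013 and 0.00188). For 7SK they were 5.94, 5.38 and 6.85, and the Rrp40 value was not called (edgeR adjusted p 0.0582). HERC2 had 2.35, 2.12 and 1.84, with a call in the Csl4 set only (edgeR adjusted p 0.0466), and Pde9 had 1.81, 1.23 and 1.27 with none. Cytosolic ribosomal protein genes were below 0 in 78, 79 and 77 of 79, with medians of -1.43, -1.48 and -0.89. Whether these cells differ from control cells in the ratio itself was not tested.

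**Figure D5:**
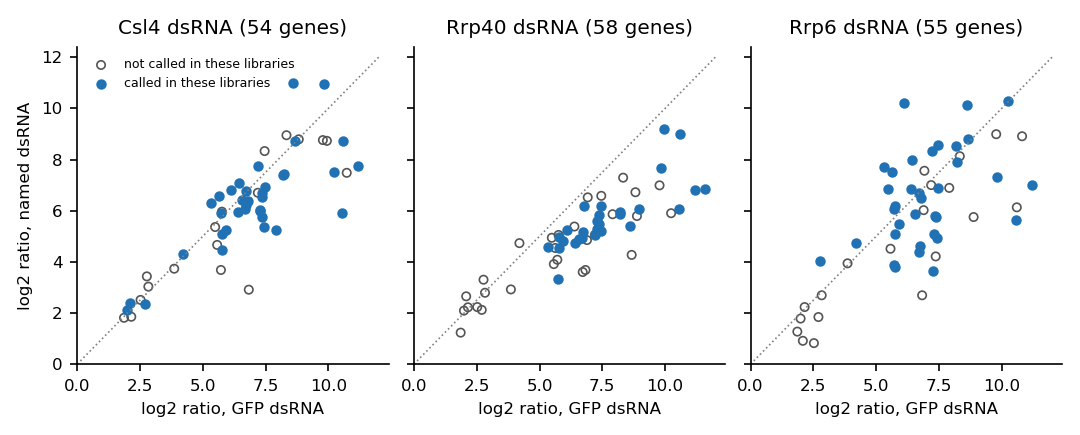
Log2 ratio of RiboMinus over poly(A) RNA for the genes called in GFP dsRNA S3 cells (x axis) against the same ratio in S3 cells given Csl4, Rrp40 or Rrp6 dsRNA (y axis), which share no libraries with the first. Filled points passed an adjusted p of 0.05 in the named cells and the dotted line marks equal ratios; all 54, 58 and 55 genes lie above 0.

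In S2 cells, the other line, GFP dsRNA gave 2 poly(A) libraries and 1 RiboMinus library of 67743 reads, so that values stand without a test. Of the 62 genes, 48 had a read in that RiboMinus library, and in these its CPM without TMM scaling was above both poly(A) libraries, as in 42.7% of all tested genes with such a read. A single read in that library is 14.8 CPM, and in 24 of the 48 both poly(A) libraries were under this level, so that any read placed them above. snRNA:7SKa stood at 63 and 18.1 CPM in the poly(A) libraries and at 2864 in the RiboMinus library. stet stood at 45 and 42.6 against 6466, and tRNA:SeC-TCA-1-1 at 4.37 and 0 against 679.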

How the data were processed

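The submitters' processing notes name the dm3 build and, as tools, DESeq 1.9.11, HTSeq 0.5.3p9, TopHat 1.4.1, cutadapt 1.0 and CASAVA 1.8. The signal values deposited by the authors are group means of counts divided by DESeq size factors, with technical runs joined, per the file headers. Counts had been foreseen, so whole reads per library were worked back from these means (tolerance 1e-07), with 1 solution for all 15065 genes in each table. Libraries read from several tables agreed in 15065 of 15065 genes. HTSeq summary rows stayed out of sizes and tests, and 14085 IDs matched a symbol. The RiboMinus libraries were set against the poly(A) libraries with edgeR 4.0.16 in R 4.3.3 (quasi-likelihood, TMM, filterByExpr, Benjamini-Hochberg over all tested genes, called at 0.05). Correlations between libraries used log2 CPM with a prior count of 2. Standard errors are the absolute log2 ratio over the square root of F. DESeq2 1.42.0 was an alternative. Scripts were tested on simulated data. The members and lists were chosen with earlier results of these data known. Named genes were all detected members of short RNA lists, the 5 most abundant tested genes of longer noncoding lists, the 10 highest and 10 lowest called genes (mean of at least 20 CPM, no overlap), also outside the noncoding lists, and the 2 most abundant of each coding list. A gene that this rule names is not reported here. Other genes named, among them the remaining called protein-coding genes, FBgn0033068, U3:9B and the genes with the lowest ratios, were chosen after their values were seen. No sequences, gene lengths or coordinates are given because the annotation used here is of another build.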

Additional observations from a re-analysis of the deposited data

How the results depend on the processing

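All 62 genes called in the fit of 5 libraries had a log2 ratio above 0 under every alternative that tested them. This was 62 of 62 except without the deeper RiboMinus library, where 49 were tested. In each of the 62 both RiboMinus libraries lay above all poly(A) libraries, and the alternatives reuse these libraries. The sign was therefore largely set in advance and is no test of the 62. The number of calls was 62 with RLE scaling and 83 with total reads only, but 577 without the filter on low counts, 224 in DESeq2, 216 with the spread of all S3 libraries and 1391 without both shallower libraries. Without each library in turn it ran from 13 to 108. Genes lower in RiboMinus RNA numbered 1 with total reads only, 55 without the filter, 23 in DESeq2, 26 with the spread of all S3 libraries and 471 without both shallower libraries, and 0 to 2 without each library in turn. The RiboMinus columns carry no replicate number, so pairing by number was replaced by a replicate block that sets the 2 shallower libraries apart from the others. With this block 1318 genes were called, 539 of them lower. Differences between depth classes correlated across fractions (Pearson r 0.373 and 0.382 over 7846 genes). The labels do not state that a number marks a shared culture, and the cause was not tested. asRNA:CR31144 turned from -0.14 to 1.07 without both shallower libraries, and over all alternatives it ran from -2.60 to 3.59. Leaving out a library in turn moved the difference in share, in percentage points, from 0.380 to 0.905 for transfer RNA, from 0.812 to 1.06 for spliceosomal RNA, from 1.44 to 2.14 for small nucleolar RNA and from 3.82 to 5.23 for all small structured RNA, and from -9.16 to -4.56 for cytosolic ribosomal protein genes. The shallower RiboMinus library, where 3 reads are 21.7 CPM, limits what can be said of rarely read genes.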
